A study of Mus musculus with 4 samples.

Results

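The 9 genes described here are 4 costimulatory receptors of the tumour necrosis factor (TNF) receptor superfamily and 5 ligands of the TNF superfamily. They were chosen by name out of the 32285 genes in the count tables. The receptors are Tnfrsf4 (OX40), Tnfrsf9 (4-1BB), Tnfrsf18 (GITR) and Cd27. The ligands are Tnfsf4 (OX40L), Tnfsf9 (4-1BBL), Tnfsf18 (GITRL), Cd70, which binds CD27, and Tnfsf14 (LIGHT), which binds HVEM and the lymphotoxin beta receptor. The receptors were read mainly in lymphocytes and the ligands mainly in myeloid cells, in cell classes gated without any of the 9 genes.

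Trimeric ligands of this family cluster their receptors, whose cytoplasmic tails bind TRAF adaptor proteins and switch on NF-kappaB. In T and NK cells these receptors support survival, division and cytokine production after antigen recognition. OX40, 4-1BB and GITR are induced by T cell activation and are known to be carried at rest by regulatory T cells, and CD27 is present on naive T cells. The ligands are classically induced on activated dendritic cells, macrophages and B cells. CD40, the target of one of the antibodies used here, is itself a TNF receptor superfamily member on antigen-presenting cells, and PD1 is an inhibitory receptor of activated T cells.

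The tumours came from mice bearing B16-F10, a mouse melanoma line. Mice received a CD40 antibody or its dilution buffer into the tumour, together with a PD1 antibody or IgG given intravenously, first at day 8 and again at day 11, and the tumours were collected at day 14. The 4 groups were the control (IgG), the CD40 antibody, the PD1 antibody and the combination of both antibodies. Live CD45+ cells from 6 mice of a group were pooled, and each pool gave 1 droplet library with 5' capture. The sources used here do not give the clone or dose of either antibody, nor the strain, sex and age of the mice.

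With 1 library per group there was no test between groups, and the mice of a pool cannot be told apart. Levels are UMIs (unique molecular identifiers, 1 per captured transcript) summed over the cells of a class and given per 1000000 UMIs of that class (CPM). Values in parentheses after a level or a ratio are its exact 95% interval, which covers counting error alone, so an interval that leaves out a ratio of 1 does not show an effect of an antibody. Lists of 4 values follow the order control, CD40, PD1 and combination. A ratio was read only in classes of at least 50 cells in both libraries and with at least 30 UMIs of the gene in the higher library, and a gene was called 2-fold apart at a log2 ratio of at least 1 in size. The share of all readable genes past that limit is given beside each first count as the background.

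The tables held 8132, 8313, 10158 and 10091 barcodes and between 117735875 and 164755549 UMIs per library. Any pair of libraries shared 94 to 144 barcodes, at most 1.73% of the smaller library. After filtering, 7736, 7757, 9681 and 9481 cells remained, of which 11.1% to 13.2% passed no gate or several. The labels give the cell type as melanoma, but the sort was for CD45+ cells and only 12, 16, 13 and 6 cells of the 4 libraries passed the melanoma gate, while Ptprc, the gene of CD45, read 369 to 1597 CPM in the T, NK, phagocyte, neutrophil and dendritic classes. CD8 T-like cells numbered 662, 1780, 1018 and 2960 and Treg-like cells 379, 92, 360 and 126. Conventional CD4 T-like cells numbered 182, 59, 163 and 85, NK-like cells 404, 293, 542 and 371 and mononuclear phagocyte-like cells (monocytes and macrophages) 3637, 3713, 5371 and 3207. Neutrophil-like cells numbered 194, 406, 152 and 1029 and dendritic cell-like cells 554, 68, 378 and 55. T cells outside the CD8, conventional CD4 and Treg classes numbered 436, 272, 414 and 346. Treg-like and dendritic cell-like cells were few in both libraries that had received the CD40 antibody, which widens every interval there.

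Most of the genes sit in pairs in the mouse genome (GRCm38, GENCODE annotation). Tnfrsf4 (chr4:156013843-156016612) and Tnfrsf18 (chr4:156026164-156028895) lie 9551 bases apart on the plus strand with no other protein-coding gene between them. Tnfsf4 (chr1:161395409-161418410) and Tnfsf18 (chr1:161494655-161505290) lie 76244 bases apart, also on the plus strand. Tnfsf9 (chr17:57105325-57107757, plus strand), Cd70 (chr17:57145997-57149777, minus strand) and Tnfsf14 (chr17:57189492-57194177, minus strand) follow each other with gaps of 38239 and 39714 bases, again with no protein-coding gene between. Tnfrsf9 (chr4:150914562-150946102, plus strand) overlaps Camta1, which runs the other way, and Cd27 (chr6:125232622-125237010, minus strand) overlaps Vamp1 on the opposite strand. Tnfrsf18 and Tnfsf9 overlap antisense gene models, so reads there could be split only by strand, and the strand setting of the counting was not stated.

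RefSeq start-site windows (GRCm38.p6, 250 bases before to 50 after an annotated start) were at hand for 6 of the 9 genes, and not for Tnfsf4, Tnfsf9 and Cd70. The 3 windows printed belong to the receptors whose levels set Treg-like cells apart: the neighbours Tnfrsf4 (chr4:156013445-156013744, plus strand) and Tnfrsf18 (chr4:156026072-156026371, plus strand), and the second annotated start of Tnfrsf9 (chr4:150927749-150928048, plus strand), the only window of the 6 genes with matches to all 3 motifs searched. Capitals mark matches, on either strand, to the NFAT core GGAAA, the AP-1 motif TGANTCA or a kappaB motif.
Tnfrsf4: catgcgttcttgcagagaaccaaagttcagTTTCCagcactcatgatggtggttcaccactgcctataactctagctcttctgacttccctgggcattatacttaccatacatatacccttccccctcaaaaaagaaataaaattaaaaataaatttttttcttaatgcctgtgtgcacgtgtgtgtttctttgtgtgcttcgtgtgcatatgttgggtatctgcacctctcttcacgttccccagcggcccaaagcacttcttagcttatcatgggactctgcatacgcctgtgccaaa
Tnfrsf18: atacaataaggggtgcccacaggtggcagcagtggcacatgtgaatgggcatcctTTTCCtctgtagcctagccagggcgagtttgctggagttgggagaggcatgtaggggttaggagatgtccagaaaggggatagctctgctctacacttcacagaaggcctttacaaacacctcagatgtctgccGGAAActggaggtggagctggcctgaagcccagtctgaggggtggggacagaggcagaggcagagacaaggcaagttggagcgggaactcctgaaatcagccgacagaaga
Tnfrsf9: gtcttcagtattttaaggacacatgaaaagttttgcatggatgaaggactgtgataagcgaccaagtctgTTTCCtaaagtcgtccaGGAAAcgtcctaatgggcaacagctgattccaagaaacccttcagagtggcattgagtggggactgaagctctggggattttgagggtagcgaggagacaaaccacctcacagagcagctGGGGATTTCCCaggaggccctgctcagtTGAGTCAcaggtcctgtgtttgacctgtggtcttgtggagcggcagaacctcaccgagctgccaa

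The Tnfrsf4 window held 1 NFAT core and neither other motif, and the Tnfrsf18 window held 2 NFAT cores. The Tnfrsf9 window held 3 NFAT cores, 1 AP-1 match and overlapping kappaB matches, which share bases with an NFAT core. The windows not printed held 1 to 4 NFAT cores, and that of Tnfsf14 also held 1 AP-1 match. An NFAT core occurs in 61.3% of the 32851 RefSeq windows of this length, an AP-1 match in 7.81% and a kappaB match in 5.8%. These matches describe letters only, and no binding was measured.

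All 4 receptors were found chiefly in T cells, with the highest levels in Treg-like cells, and all but Tnfrsf4 also in NK cells. Mature dendritic cells held Tnfrsf4, Tnfrsf9 and Tnfrsf18 too, as given below. Tnfrsf4 reached 1778, 2278, 2138 and 1636 CPM in the Treg-like cells of the 4 libraries, against 348, 414, 565 and 442 CPM in conventional CD4 T-like and 172, 104, 175 and 92.7 CPM in CD8 T-like cells. In every library the order was Treg, CD4 T, CD8 T, and no interval of one class reached that of the next. NK-like cells held 7.45, 2.42, 7.48 and 1.95 CPM of Tnfrsf4 and phagocyte-like cells 2.59, 0.641, 2.97 and 0.851 CPM.

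Tnfrsf9 was again highest in Treg-like cells, at 1177, 1966, 1616 and 2026 CPM, but CD8 T-like cells came second with 581, 414, 775 and 549.6 CPM. NK-like cells held 299, 267, 446 and 389 CPM and conventional CD4 T-like cells 181, 263, 386 and 298 CPM. The order of the 4 classes was the same in every library, and the intervals of neighbours overlapped only for NK-like and CD4 T-like cells of the CD40 library.

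Tnfrsf18 stood at 1024, 1321, 1198 and 1185 CPM in Treg-like, 422, 364, 474 and 322 CPM in CD4 T-like, 244, 161, 217 and 177 CPM in CD8 T-like and 215, 130.03, 250.3 and 122 CPM in NK-like cells. The first 3 classes kept that order in all 4 libraries. CD8 T-like and NK-like cells lay near each other, though their intervals did not overlap, with NK-like cells lower in 3 libraries and higher in the PD1 library.

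Cd27, which differs from the others in being present before activation, lay closer together across the T cell classes. It read 245, 246, 301 and 284 CPM in Treg-like, 169.7, 148, 194 and 169.6 CPM in CD8 T-like, 106, 88.98, 134 and 86.0 CPM in CD4 T-like and 93.0, 26.4, 78.3 and 34.9 CPM in NK-like cells. Treg-like cells were again highest and CD8 T-like cells second in every library. CD4 T-like and NK-like intervals overlapped in the control, and in both libraries with the CD40 antibody NK-like cells stood lowest by a wide margin.

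**Figure D1:**
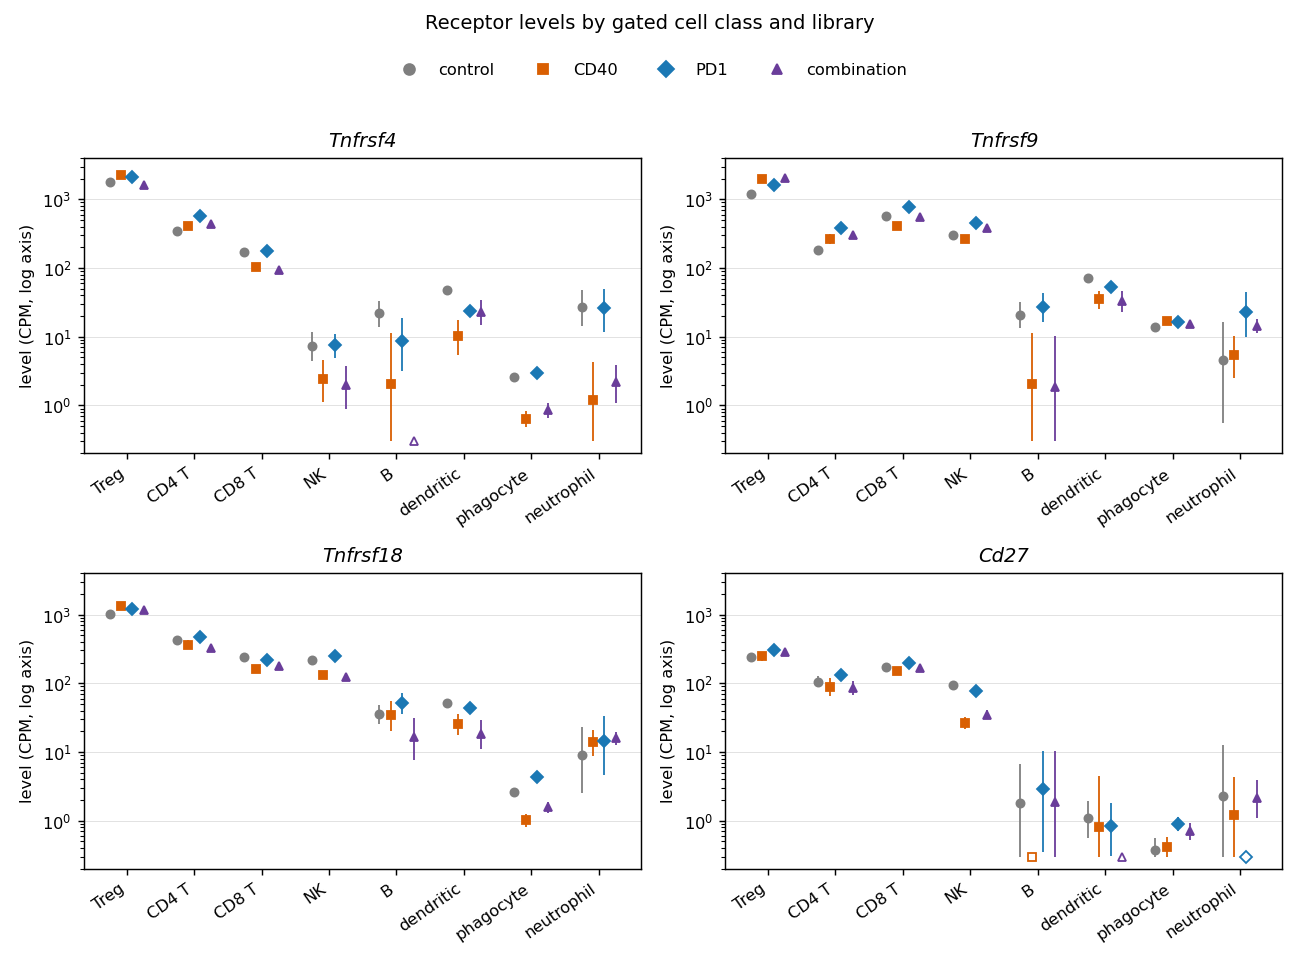
Level of each receptor (CPM on a log axis) in 8 gated cell classes, with 1 point per library, bars for the exact 95% Poisson interval and open symbols at the axis floor for a level of 0. Treg-like cells are highest for Tnfrsf4 at 1636 to 2278 CPM, and Cd27 is under 3 CPM in B-like, dendritic, phagocyte-like and neutrophil-like cells.

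The same picture held for single cells once each was thinned to 3000 UMIs. Tnfrsf4 was found in 91.9, 91.2, 91.3 and 83.7% of thinned Treg-like cells (unthinned, 94.5, 96.7, 96.4 and 91.3%) and in 22.3, 12.7, 24.3 and 11.8% of CD8 T-like cells (unthinned, 46.5, 30, 48.7 and 25.9%). Phagocyte-like cells, taken as a class that should lack OX40, gave 0.754, 0.217, 1.04 and 0.315% as the background, at median depths of 13720, 18942, 12776 and 17688 UMIs before thinning against 6653, 7720.5, 6514 and 7904 UMIs in Treg-like cells. For Tnfrsf9 the thinned shares were 81.6, 92.3, 83.9 and 78.05% in Treg-like, 46.0, 39.5, 64.1 and 44.1% in CD8 T-like and 2.74, 2.41, 2.65 and 2.08% in phagocyte-like cells (unthinned, 88.9, 96.7, 90 and 88.9%, 61.0, 61.2, 77.4 and 64.6% and 6.30, 6.95, 6.72 and 7.23%). Median depths of CD8 T-like cells were 11111, 12839.5, 15272 and 13224 UMIs. Shallower cells were left out of the thinning, which kept 359, 91, 335 and 123 Treg-like, 631, 1765, 1007 and 2920 CD8 T-like, 381, 290, 516 and 368 NK-like and 3582, 3692, 5311 and 3175 phagocyte-like cells.

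Treg-like cells often carried all 4 receptors at once. In thinned cells, all 4 were detected in 36.2, 47.3, 43.0 and 42.3% of Treg-like cells and in 6.66, 1.93, 6.26 and 2.74% of CD8 T-like cells of the 4 libraries. The CD8 T-like shares were lower in both libraries with the CD40 antibody than in both without it. None of the 4 was detected in 20.3, 26.1, 13.1 and 23.5% of CD8 T-like and 24.7, 43.1, 20.5 and 40.2% of NK-like cells, and these shares were higher in the libraries with the CD40 antibody.

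Within CD8 T-like cells Tnfrsf4 and Tnfrsf9 tended to be found in the same cells. Thinned cells with a Tnfrsf9 UMI held Tnfrsf4 in 37.6, 22.2, 33.2 and 22.0% of cases, and cells without one in 9.38, 6.56, 8.56 and 3.80%. For Tnfrsf4 and Cd27 the shares lay closer, at 27.1, 14.1, 26.1 and 12.6% with and 19.2, 12.0, 22.9 and 11.3% without a Cd27 UMI. Cells with a Tnfrsf9 UMI were also deeper before thinning, with medians of 17972, 16484, 19853 and 16901 UMIs against 8192, 11243, 9200.5 and 11347 UMIs, and the part of this difference in the shared detection was not tested.

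In Treg-like cells the receptors differed by less than 2-fold between libraries, and Tnfrsf9 differed most. Its 1177 (1141 to 1214) CPM in the control compared with 1966 (1871 to 2064) CPM with the CD40 antibody, 1616 (1572 to 1662) CPM with the PD1 antibody and 2026 (1948 to 2106) CPM with both. All 3 treated libraries lay above the control, and the CD40 and combination intervals overlapped. The log2 ratio of Tnfrsf9 was 0.74 (0.66 to 0.82) for CD40 against control and 0.33 (0.26 to 0.40) for combination against PD1, which share no library. For the PD1 antibody it was 0.46 (0.40 to 0.52) without and 0.04 (-0.05 to 0.13) with the CD40 antibody.

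Tnfrsf4 in Treg-like cells was highest in the CD40 library and lowest in the combination. Against the control its log2 ratio was 0.36 (0.28 to 0.43) with the CD40 antibody, 0.27 (0.22 to 0.32) with the PD1 antibody and -0.12 (-0.19 to -0.05) with both. Tnfrsf18 gave 0.37 (0.27 to 0.47), 0.23 (0.16 to 0.29) and 0.21 (0.12 to 0.30), and Cd27 gave 0.01 (-0.22 to 0.23), 0.30 (0.16 to 0.43) and 0.21 (0.03 to 0.39); these comparisons share the control library. None of the 4 receptors was 2-fold apart in Treg-like cells in any of the 5 comparisons, beside 6.65% of all genes for CD40 against control, 6.13% for combination against PD1, 1.35% for PD1 against control, 4.46% for combination against CD40 and 7.84% for combination against control. The median log2 ratio of the 4 for CD40 against control was 0.36, beside -0.05 over all genes, and for combination against PD1 it was -0.05, beside -0.10. The 10 phagocyte markers together read 596, 753, 522 and 1095 CPM in Treg-like cells and Lyz2 54.9, 59.4, 50.5 and 415 CPM, highest in the combination, and their part in its receptor levels was not tested.

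Dividing Treg-like cells (at least 3 of 6 proliferation genes) held less of each receptor than non-dividing ones. For Tnfrsf9 the levels were 738, 575, 975 and 512 CPM in dividing cells, of which there were 50, 9, 50 and 14, and 1357, 2274, 1873 and 2475 CPM in the others. In non-dividing cells alone the Tnfrsf9 ratios were 0.74 (0.66 to 0.83) for CD40 against control and 0.40 (0.33 to 0.48) for combination against PD1.

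In CD8 T-like cells all 4 receptors were lower in the libraries with the CD40 antibody than in the matching libraries without it. Tnfrsf9 read 581 (566 to 597) CPM in the control, 414 (407 to 422) CPM with the CD40 antibody, 775 (762 to 787) CPM with the PD1 antibody and 549.6 (543 to 556) CPM with both. No intervals overlapped, and the PD1 library was highest and the CD40 library lowest. The log2 ratio was -0.49 (-0.53 to -0.44) for CD40 against control and -0.50 (-0.52 to -0.47) for combination against PD1. For the PD1 antibody it was 0.41 (0.37 to 0.46) without and 0.41 (0.38 to 0.44) with the CD40 antibody.

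Tnfrsf4 showed the widest gap. CD8 T-like cells held 172 (164 to 181) CPM in the control and 175 (169 to 181) CPM in the PD1 library, whose intervals overlap, against 104 (100.1 to 108) CPM in the CD40 library and 92.7 (90.0 to 95.4) CPM in the combination. The log2 ratio was -0.73 (-0.82 to -0.64) for CD40 against control and -0.91 (-0.98 to -0.85) for combination against PD1. For Tnfrsf18 the same ratios were -0.60 (-0.67 to -0.52) and -0.30 (-0.35 to -0.24), and for Cd27 -0.19 (-0.28 to -0.11) and -0.20 (-0.25 to -0.14).

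None of the 4 receptors was 2-fold apart in CD8 T-like cells in any comparison. Of all genes, 5.49% were for CD40 against control, 5.72% for combination against PD1, 3.44% for PD1 against control, 2.1% for combination against CD40 and 8.45% for combination against control. The median over the 4 receptors was -0.54 for CD40 against control and -0.40 for combination against PD1, where all genes had medians of 0.003 and 0.039. With every cell given equal weight, 1 receptor was 2-fold apart for combination against PD1, which was Tnfrsf4 at a log2 ratio of -1.001.

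The mix of CD8 T-like cells also differed between libraries. Non-dividing cells with Tcf7 and without Havcr2 UMIs (Tcf7 encodes TCF1, a factor of naive and stem-like T cells, and Havcr2 the inhibitory receptor TIM3) made up 34.1, 11.7, 18.9 and 13.01% of the class, those with Havcr2 and without Tcf7 22.7, 34.0, 33.6 and 31.6%, those with neither or both 18.6, 21.1, 11.9 and 22.6% and dividing cells 24.6, 33.1, 35.7 and 32.8%. The receptors were therefore also read within each of these states. A state is a range of UMIs, and a Tcf7 or Havcr2 UMI is missed more often in a shallow cell.

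Tnfrsf9 separated the states most. In cells with Havcr2 and without Tcf7 it read 889, 624, 1084 and 1035 CPM, in cells with Tcf7 and without Havcr2 97.8, 70.1, 142 and 81.3 CPM, a fold of 9.10, 8.91, 7.61 and 12.7. Tnfrsf4 differed by 3.98, 7.64, 3.15 and 8.28-fold between the same states and Tnfrsf18 by 1.73, 1.57, 1.66 and 1.62-fold. Cd27 was nearly level, at 204, 181, 242 and 242 CPM and 189.7, 166, 213 and 206 CPM. Dividing cells lay below the Havcr2 state for each receptor, at 637, 402, 742 and 434 CPM for Tnfrsf9 and 141, 121, 169 and 115 CPM for Cd27.

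Tnfrsf4 was lower with the CD40 antibody within each of the 4 states. In cells with Tcf7 and without Havcr2 it read 54.3, 19.3, 72.1 and 20.002 CPM, with log2 ratios of -1.49 (-2.06 to -0.95) for CD40 against control and -1.85 (-2.28 to -1.43) for combination against PD1. In cells with Havcr2 and without Tcf7 the ratios were smaller, -0.55 (-0.70 to -0.39) and -0.46 (-0.55 to -0.36), and in cells with neither or both they were -1.91 (-2.20 to -1.62) and -1.83 (-2.14 to -1.51). Dividing cells gave -0.90 (-1.02 to -0.78) and -1.09 (-1.19 to -1.002).

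Tnfrsf9 was less uniform across the states. In the Havcr2 state the combination, at 1035 (1018 to 1052) CPM, came near the PD1 library, at 1084 (1057 to 1112) CPM, while the control read 889 (852 to 929) CPM and the CD40 library 624 (607 to 641) CPM. The ratio of combination to PD1 was -0.07 (-0.11 to -0.02) there, -0.78 (-0.82 to -0.73) in dividing cells and -0.92 (-1.06 to -0.77) in cells with neither or both genes. For CD40 against control the 3 ratios were -0.51 (-0.58 to -0.44), -0.67 (-0.73 to -0.60) and -1.4999 (-1.66 to -1.34).

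**Figure D2:**
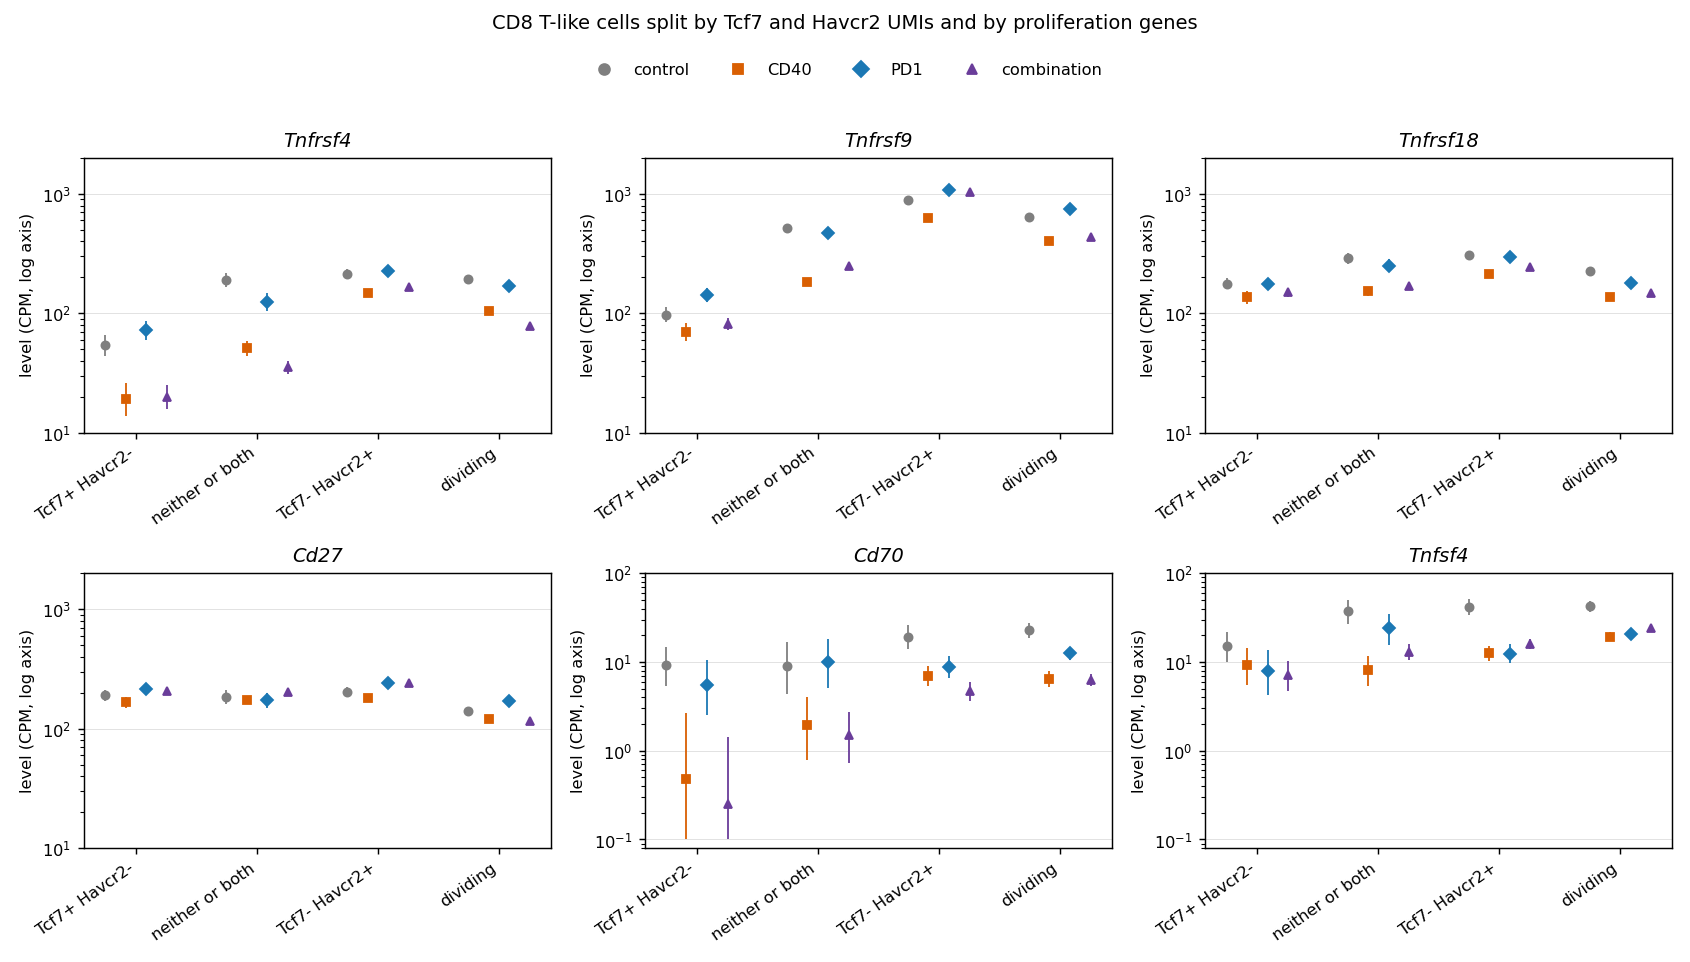
Levels (CPM on a log axis) of the 4 receptors and of Cd70 and Tnfsf4 in CD8 T-like cells split into 4 states, 1 point per library with its exact 95% Poisson interval. Tnfrsf9 spans 70.1 to 1084 CPM across states and libraries, while Cd27 stays between 115 and 242 CPM.

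Conventional CD4 T-like cells were few, and their receptor levels were highest in the PD1 library for all 4 receptors. Tnfrsf9 read 181 (157 to 208) CPM in the control, 263 (221 to 311) CPM in the CD40, 386 (349 to 424) CPM in the PD1 and 298 (264 to 336) CPM in the combination library. The control was lowest and the PD1 library highest. The ratio of PD1 to control was 1.09 (0.84 to 1.34), the 1 receptor of 4 that was 2-fold apart there beside 3.19% of all genes, and it ran from 0.76 to 1.29 over 8 alternatives. In the PD1 library 9 of 163 cells held 51.7% of the 418 Tnfrsf9 UMIs, and in the control 10 of 182 cells held 49.5% of 202. The 5 NK markers together read 37.7, 50.3, 151 and 44.6 CPM in CD4 T-like cells, highest in the PD1 library, and their part in this ratio was not tested. A Treg cell without a captured Foxp3 UMI could also pass this gate, and the part of such cells was not tested. Tnfrsf4 gave 0.70 (0.51 to 0.89) for the same comparison, Tnfrsf18 0.17 (-0.01 to 0.35) and Cd27 0.34 (-0.02 to 0.70).

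In NK-like cells Cd27 and Tnfrsf18 were lower with the CD40 antibody, and Tnfrsf9 was higher with the PD1 antibody. Cd27, which is known to mark less mature NK cells in mice, read 93.0 (81.5 to 106) CPM in the control, 26.4 (21.4 to 32.2) CPM with the CD40 antibody, 78.3 (69.6 to 87.8) CPM with the PD1 antibody and 34.9 (29.7 to 40.7) CPM with both. Both libraries with the CD40 antibody lay below both without it, and the intervals did not meet. That is 3.52-fold lower for CD40 against control, a log2 ratio of -1.82 (-2.17 to -1.47), and 2.24-fold lower for combination against PD1, -1.16 (-1.45 to -0.88). The ranges were -1.90 to -1.34 over 10 alternatives and -1.32 to -0.89 over 10 alternatives.

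Tnfrsf18 in NK-like cells gave -0.72 (-0.90 to -0.54) for CD40 against control and -1.04 (-1.19 to -0.89) for combination against PD1, and the second ran from -1.04 to -0.81 over 10 alternatives. Tnfrsf9 gave 0.58 (0.45 to 0.70) for PD1 against control and 0.54 (0.43 to 0.66) for combination against CD40. Tnfrsf4 had too few UMIs in NK-like cells to be read. Of the 3 readable receptors, 1 was 2-fold apart for CD40 against control, beside 9.35% of all genes, 2 for combination against PD1, beside 6.45%, 1 for combination against control, beside 8.49%, and 0 for PD1 against control and combination against CD40, beside 0.963% and 1.09%.

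Dividing cells made up 1.24, 19.8, 2.03 and 17.5% of NK-like cells. In non-dividing NK-like cells the Cd27 ratios were -1.43 (-1.80 to -1.07) and -0.90 (-1.20 to -0.60) for the same comparisons, and those of Tnfrsf18 -0.41 (-0.60 to -0.22) and -0.82 (-0.98 to -0.66). NK-like cells were also deeper with the CD40 antibody, with medians of 5376, 11174, 6184 and 10935 UMIs. Thinned to 3000 UMIs, 24.4, 9.31, 20.5 and 10.3% of them held a Cd27 UMI (unthinned, 39.1, 22.9, 36.9 and 25.3%), against 0.0558, 0.190, 0.414 and 0.315% of phagocyte-like cells (unthinned, 0.660, 0.996, 1.36 and 1.497%).

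**Figure D3:**
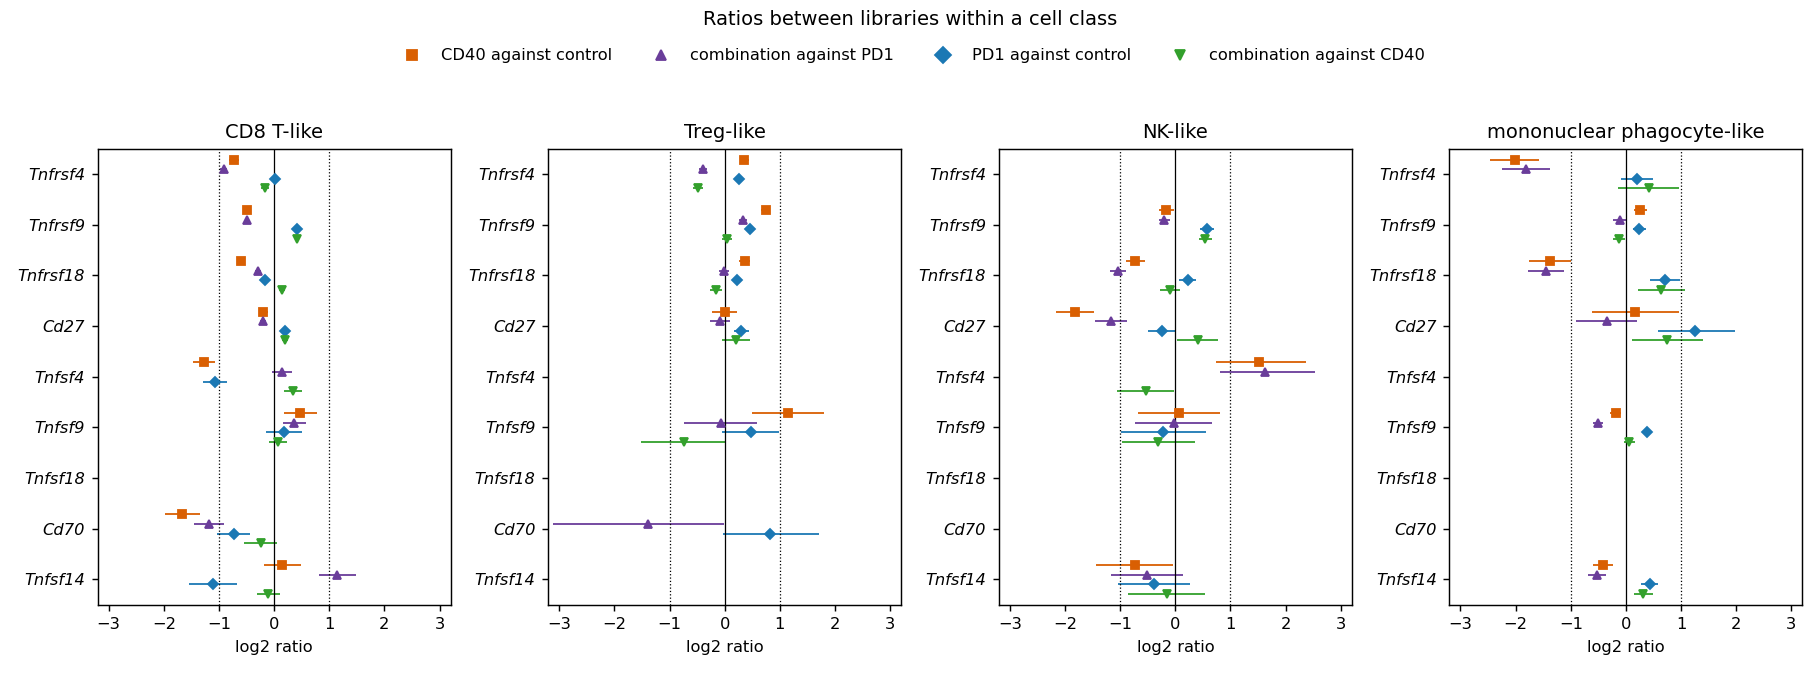
Log2 ratios between libraries for each readable gene in CD8 T-like, Treg-like, NK-like and mononuclear phagocyte-like cells, with exact 95% intervals and dotted lines at 2-fold. The 2 CD40 antibody ratios of all receptors lie left of 0 in CD8 T-like cells, and in NK-like cells those of Cd27 lie beyond the 2-fold line on the left and those of Tnfsf4 beyond it on the right.

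Among myeloid cells, mature dendritic cells held the highest levels of Tnfrsf4 and Tnfrsf9 in all 4 libraries, and of Tnfrsf18 in all but the combination. Dendritic cell-like cells with mature markers (Ccr7, Fscn1, Cacnb3, Il4i1 and Socs2) held 207, 27.7, 143 and 68.1 CPM of Tnfrsf4, 269, 99.2, 316 and 85.1 CPM of Tnfrsf9 and 132, 39.2, 151 and 17.02 CPM of Tnfrsf18, in 162, 21, 63 and 19 cells. The 5 T cell markers together read 12.3, 11.5, 16.9 and 11.3 CPM in these cells, against 3745, 4390.1, 4301 and 4225 CPM in CD8 T-like cells, and Cd27 was at or under 1.09 CPM in the whole dendritic class. All 3 receptors were lower in both libraries with the CD40 antibody, where under 50 such cells each were left, so no ratio was read for the mature cells.

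Over the whole dendritic class, Tnfrsf4 gave -2.21 (-3.13 to -1.43) for CD40 against control, Tnfrsf9 -1.01 (-1.49 to -0.57) and Tnfrsf18 -1.02 (-1.58 to -0.51), all 3 past 2-fold beside 11.1% of all genes. For combination against PD1 Tnfrsf18 alone of the 4 was past 2-fold, at -1.24 (-2.00 to -0.58), beside 11.6%, and Tnfrsf4 gave -0.02 (-0.71 to 0.60). Of the Tnfrsf4 UMIs, 1 cell held 12 of 24 in the combination and 1 cell 8 of 13 in the CD40 library. Each gene's UMIs in its top cell of each library were then left out. The Tnfrsf4 ratios became -3.49 for CD40 against control and -0.89 for combination against PD1, and Tnfrsf9 reached -1.11 in the second. For PD1 against control Tnfrsf4 gave -1.02 (-1.28 to -0.77), past 2-fold beside 3.01%. The make-up of the class differed between libraries: cDC1-like cells were 128, 3, 79 and 1, cDC2-like cells 163, 6, 95 and 2 and cells of no subset 101, 38, 141 and 33. Phagocyte markers moved with it: the 10 of the phagocyte gate together read 1245, 3796, 1721 and 4762 CPM in dendritic cell-like cells, Lyz2 442, 2512, 665 and 3369.7 CPM and Csf1r 47.0, 207, 49.9 and 194 CPM. Cells that passed the phagocyte gate were not excluded from this class, and the part of these markers in its ratios was not tested. Classes drawn from clusters turned the sign of Tnfrsf9 for CD40 against control, to 0.28, and a stricter gate that of Tnfrsf4 for combination against control, to 0.20.

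Phagocyte-like cells held 14.0, 16.8, 16.6 and 15.4 CPM of Tnfrsf9. These UMIs came from 229, 258, 361 and 232 of the 3637, 3713, 5371 and 3207 cells. At most 66, 63, 64 and 71 of them lay in 1 cell. The class held 2.61, 1.01, 4.26 and 1.57 CPM of Tnfrsf18. Tnfrsf9 differed between their subsets. It read 2.79, 4.12, 5.62 and 4.57 CPM in cells with Adgre4, a gene of non-classical monocytes, and without C1qa. It read 15.2, 19.3, 17.1 and 14.9 CPM in cells with C1qa, a complement gene of tissue macrophages, and without Adgre4. The C1qa cells lay near the level of the whole class, and below it in the combination. Tnfrsf9 levels outside these subsets are not given here. Tnfrsf4 and Tnfrsf18 were lower with the CD40 antibody, at -2.01 (-2.47 to -1.58) and -1.37 (-1.76 to -0.997) for CD40 against control and -1.80 (-2.24 to -1.39) and -1.44 (-1.77 to -1.13) for combination against PD1, 2 of 4 receptors in each, beside 5.44% and 4.6% of all genes. Cd27, at 0.374, 0.420, 0.894 and 0.704 CPM, gave 1.26 (0.57 to 1.98) for PD1 against control, from 0.12 to 2.89 over 9 alternatives. Treg-like cells, which held the most Tnfrsf4, made up 4.9, 1.19, 3.72 and 1.33% of the libraries, and the 5 T cell markers together read 7.16, 6.99, 10.3 and 11.9 CPM in phagocyte-like cells. The part of free RNA in these low levels was not tested.

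Among the ligands, Tnfsf9 had its largest number of UMIs in phagocyte-like cells, while dendritic cell-like cells held higher CPM in all 4 libraries. Phagocyte-like cells held 21.3 (20.2 to 22.4) CPM in the control, 18.7 (17.8 to 19.6) CPM with the CD40 antibody, 27.7 (26.6 to 28.8) CPM with the PD1 antibody and 19.5 (18.5 to 20.6) CPM with both. The PD1 library stood above the other 3, whose levels lay close together. The log2 ratio was 0.38 (0.28 to 0.48) for PD1 against control and 0.06 (-0.04 to 0.17) for combination against CD40. For the CD40 antibody it was -0.19 (-0.29 to -0.08) and -0.51 (-0.61 to -0.41).

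The subsets of phagocyte-like cells differed in this pattern. The subsets exclude each other: cells with C1qa lacked Adgre4 UMIs, cells with Adgre4 lacked C1qa UMIs and cells with Ccr2 lacked both. Cells with C1qa held 18.8, 20.9, 29.1 and 26.1 CPM of Tnfsf9, cells with Ccr2, a chemokine receptor of inflammatory monocytes, 28.1, 23.5, 32.7 and 21.2 CPM, and cells with Adgre4 17.9, 8.82, 11.2 and 6.03 CPM. In the Adgre4 cells all 3 treated libraries were lower than the control, with a log2 ratio of -1.02 (-1.43 to -0.62) for CD40 against control and -0.68 (-1.06 to -0.28) for PD1 against control, while in the C1qa cells these ratios were 0.15 (0.01 to 0.29) and 0.63 (0.49 to 0.76). By these definitions, the C1qa subset made up 40.7, 37.4, 33.8 and 25.9% of phagocyte-like cells. The Ccr2 subset made up 36.4, 22.7, 38.0 and 30.7% and the Adgre4 subset 16.2, 26.0, 20.4 and 30.4%.

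Neutrophil-like cells held 22.9, 28.8, 2.88 and 79.5 CPM of Tnfsf9, from 10, 48, 1 and 405 UMIs. The combination stood above the other libraries, with log2 ratios of 1.80 (0.90 to 2.87) against control, 1.47 (1.03 to 1.93) against CD40 and 4.79 (2.30 to 10.10) against PD1, where the reference held a single UMI. In the combination the UMIs came from 84 of 1029 cells, 1 of which held 53 of the 405. Among neutrophil-like cells, 36.5% of all genes were 2-fold apart for combination against control, 17.5% for combination against CD40 and 29.4% for combination against PD1, and the median of all genes for combination against control lay at -0.53 by totals and 0.16 by edgeR's TMM factors. The ratio ran from 1.31 to 2.49 over 9 alternatives against control and from 0.63 to 5.39 over 9 alternatives against PD1.

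Dendritic cell-like cells held 36.4, 34.99, 45.9 and 40.7 CPM of Tnfsf9, with every ratio between libraries under 2-fold. In the combination 22 of the 42 UMIs came from 1 cell. Without the Tnfsf9 UMIs of the top cell of each library, the ratio of combination to PD1 was -1.18 in place of -0.17. That of combination to control was -0.80 in place of 0.16. Lymphocytes also carried some: 17.4, 38.8, 24.1 and 23.1 CPM in Treg-like, 10.8, 27.1, 21.2 and 37.0 CPM in CD4 T-like and 11.7, 16.3, 13.3 and 17.1 CPM in CD8 T-like cells. In Treg-like cells the ratio for CD40 against control was 1.16 (0.49 to 1.80), on 32 and 59 UMIs, and it ran from 0.68 to 1.23 over 10 alternatives. In CD8 T-like cells with Havcr2 and without Tcf7 the levels were 12.0, 20.1, 11.5 and 24.9 CPM, higher in both libraries with the CD40 antibody. In CD4 T-like cells the ratio for combination against control was 1.78 (0.80 to 2.87), past 2-fold beside 11.1% of all genes.

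**Figure D4:**
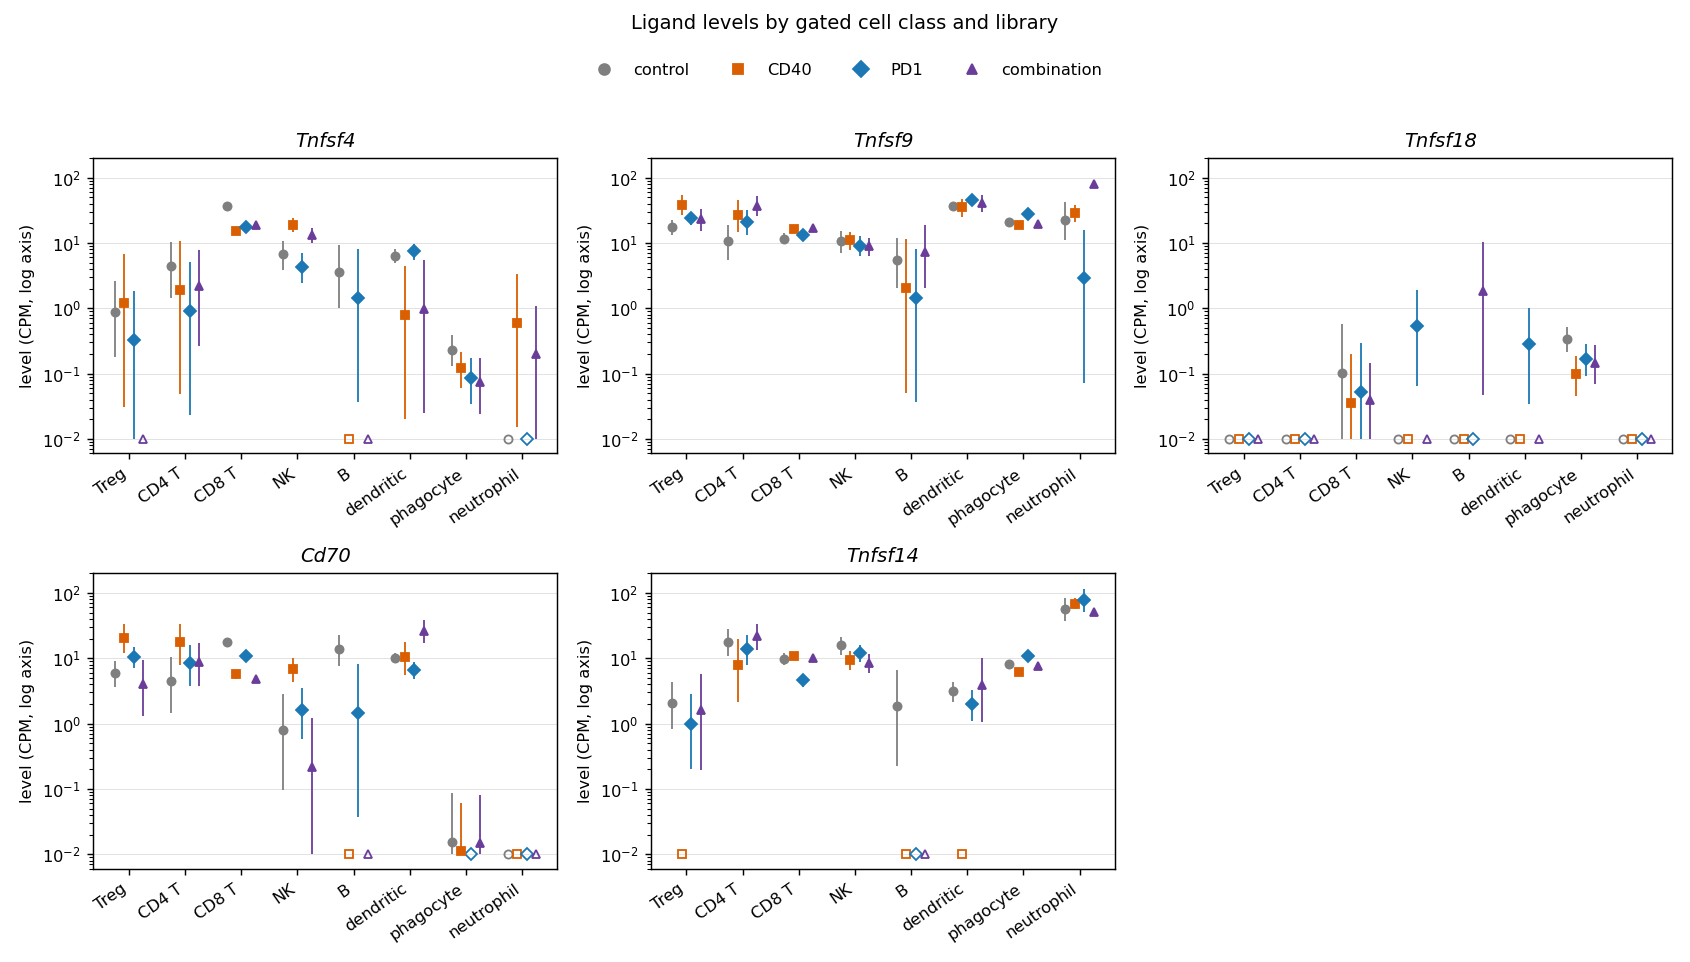
Level of each ligand (CPM on a log axis) in 8 gated cell classes, 1 point per library with its exact 95% Poisson interval and open symbols at the axis floor for a level of 0. Tnfsf14 is highest in neutrophil-like cells at 51.4 to 77.7 CPM, Tnfsf9 in the neutrophil-like cells of the combination at 79.5 CPM, and Tnfsf18 is under 2 CPM in every class shown.

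Tnfsf14 was highest in neutrophil-like cells, at 57.1, 68.4, 77.7 and 51.4 CPM from 25, 114, 27 and 262 UMIs, and the 4 intervals overlapped, from 37.0 to 84.4 in the control and from 45.4 to 58.1 in the combination. Phagocyte-like cells held 8.07, 6.05, 10.9 and 7.54 CPM, with log2 ratios of 0.43 (0.27 to 0.59) for PD1 against control and 0.32 (0.14 to 0.49) for combination against CD40, and -0.41 (-0.59 to -0.24) and -0.53 (-0.69 to -0.37) for the CD40 antibody. None of the 5 ligands was 2-fold apart in phagocyte-like cells in any of the 5 comparisons, beside 3.94% of all genes for PD1 against control, 3.91% for combination against CD40 and 8.37% for combination against control, but only Tnfsf9 and Tnfsf14 reached 30 UMIs there.

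In CD8 T-like cells Tnfsf14 read 9.86 (7.99 to 12.0) CPM in the control, 10.9 (9.69 to 12.2) CPM in the CD40, 4.56 (3.65 to 5.63) CPM in the PD1 and 10.1 (9.22 to 11.0) CPM in the combination library. The PD1 library was low and the other 3 intervals overlapped. The log2 ratio was -1.11 (-1.55 to -0.68) for PD1 against control and 1.14 (0.81 to 1.49) for combination against PD1, which share the PD1 library, and it ran from -1.14 to -0.78 over 10 alternatives and from 0.67 to 1.24 over 10 alternatives. Within the Havcr2 state the values were 10.3, 14.1, 4.51 and 19.1 CPM, and within the Tcf7 state 20.4, 19.8, 15.3 and 12.4 CPM.

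Tnfsf4 and Cd70, ligands of OX40 and CD27, were found mainly in lymphocytes and mature dendritic cells rather than phagocytes. The phagocytes held 15, 11, 7 and 5 UMIs of Tnfsf4 and 1, 1, 0 and 1 UMIs of Cd70. Among lymphocytes, Tnfsf4 lay mainly in CD8 T-like and NK-like cells. Treg-like cells held 3, 1, 1 and 0 UMIs of it, CD4 T-like cells 5, 1, 1 and 2 and B-like cells 4, 0, 1 and 0. CD8 T-like cells held 36.5 (32.8 to 40.5) CPM of Tnfsf4 in the control, against 15.1 (13.7 to 16.6) CPM with the CD40 antibody, 17.3 (15.5 to 19.3) CPM with the PD1 antibody and 19.2 (18.0 to 20.4) CPM with both. The control stood above all 3 treated libraries. Against the control the log2 ratio was -1.27 (-1.48 to -1.06) with the CD40 antibody, -1.08 (-1.30 to -0.86) with the PD1 antibody and -0.93 (-1.11 to -0.75) with both, and these 3 comparisons share the control library. It ran from -1.54 to -0.90 over 10 alternatives for the first and from -1.27 to -0.71 over 10 alternatives for the second.

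In the control the 359 UMIs of Tnfsf4 in CD8 T-like cells came from 132 of 662 cells, with at most 17 in 1 cell. The Havcr2 state read 42.0, 12.5, 12.4 and 16.1 CPM, dividing cells 42.2, 19.3, 20.6 and 24.3 CPM, cells with neither or both genes 37.2, 8.09, 23.8 and 13.04 CPM and the Tcf7 state 15.04, 9.18, 7.94 and 7.09 CPM, with the control highest in each. The CD40 to control ratio within the Havcr2 state was -1.75 (-2.16 to -1.34) and the PD1 to control ratio -1.76 (-2.22 to -1.30). Thinned, 7.77, 3.63, 3.18 and 3.66% of CD8 T-like cells held a Tnfsf4 UMI (unthinned, 19.9, 12.0, 14.5 and 13.7%), and 0.112, 0, 0.0188 and 0.0315% of phagocyte-like cells did (unthinned, 0.412, 0.269, 0.130 and 0.156%).

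In NK-like cells Tnfsf4 was instead higher with the CD40 antibody. It read 6.67 (3.88 to 10.7) CPM in the control, 19.1 (14.9 to 24.1) CPM with the CD40 antibody, 4.27 (2.44 to 6.94) CPM with the PD1 antibody and 13.2 (10.1 to 16.99) CPM with both. The CD40 library was highest and the combination second, although the intervals of the control and the combination overlapped at their edges. The log2 ratio was 1.52 (0.74 to 2.38) for CD40 against control, from 71 and 17 UMIs, and 1.63 (0.82 to 2.52) for combination against PD1, from 61 and 16 UMIs. It ran from 1.38 to 2.62 over 10 alternatives and from 1.43 to 2.22 over 10 alternatives. In the CD40 library 1 cell held 16 of the 71 UMIs, and non-dividing NK-like cells gave 1.99 (1.18 to 2.88) and 1.84 (0.99 to 2.78).

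Mature dendritic cell-like cells held 27.8, 2.31, 50.8 and 2.84 CPM of Tnfsf4, from 68, 1, 51 and 1 UMIs. For the whole dendritic class the ratio was -2.98 (-8.31 to -0.46) for CD40 against control, with 1 UMI in the 68 cells of the CD40 library, and -2.94 (-8.27 to -0.40) for combination against PD1, with 1 UMI in the 55 cells of the combination. In thinned cells the signs turned, to 0.92 and 1.18, and the counts are too low to read a direction.

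Cd70 in CD8 T-like cells was lower with the CD40 antibody. It read 17.9 (15.3 to 20.7) CPM in the control, 5.63 (4.79 to 6.58) CPM in the CD40, 10.7 (9.33 to 12.3) CPM in the PD1 and 4.75 (4.16 to 5.39) CPM in the combination library. The control was highest, the PD1 library intermediate, and the CD40 and combination intervals overlapped at the bottom. The log2 ratio was -1.67 (-1.99 to -1.35) for CD40 against control, 3.18-fold lower, and -1.18 (-1.45 to -0.90) for combination against PD1, 2.26-fold lower. The first ran from -1.67 to -1.39 over 10 alternatives and the second from -1.42 to -0.83 over 10 alternatives.

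Dividing CD8 T-like cells held 22.9, 6.49, 12.6 and 6.32 CPM of Cd70 and those of the Havcr2 state 19.3, 7.03, 8.83 and 4.71 CPM, with ratios for CD40 against control of -1.82 (-2.24 to -1.40) and -1.46 (-2.04 to -0.86). Of the 5 ligands in CD8 T-like cells, 4 were readable, and 2 were 2-fold lower for CD40 against control (Cd70 and Tnfsf4, beside 2.6% of all genes), 2 for PD1 against control (Tnfsf4 and Tnfsf14, beside 1.8%) and 1 for combination against PD1 (Cd70, beside 2.19%).

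In other classes few cells set the level of Cd70. Mature dendritic cell-like cells held 44.5, 29.996, 40.9 and 76.6 CPM, and in the combination 17 of the 27 UMIs of the dendritic class came from 1 cell of 4 that held any. The ratio of 1.98 (1.24 to 2.70) for combination against PD1 ran from 0.86 to 3.1998 over 7 alternatives. Treg-like cells held 20, 17, 32 and 5 UMIs of Cd70. The class held 3386596, 824561, 3067310 and 1254302 UMIs in all, so scaled to these totals the CD40 library was highest. For CD40 against control neither library reached 30 UMIs, and no ratio was read. For combination against PD1 the ratio was -1.39 (-3.10 to -0.02). In NK-like cells of the CD40 library 22 of 25 Cd70 UMIs came from 1 cell.

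Tnfsf18, the ligand of GITR, was barely detected. All cells kept held 27, 16, 26 and 18 UMIs, of which phagocyte-like cells held 22, 9, 14 and 10, or 0.343, 0.0994, 0.169 and 0.147 CPM. Neutrophil-like cells held 0 UMIs in all 4 libraries, and no library had 30 UMIs of it in any class, so no ratio was read.

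**Figure D5:**
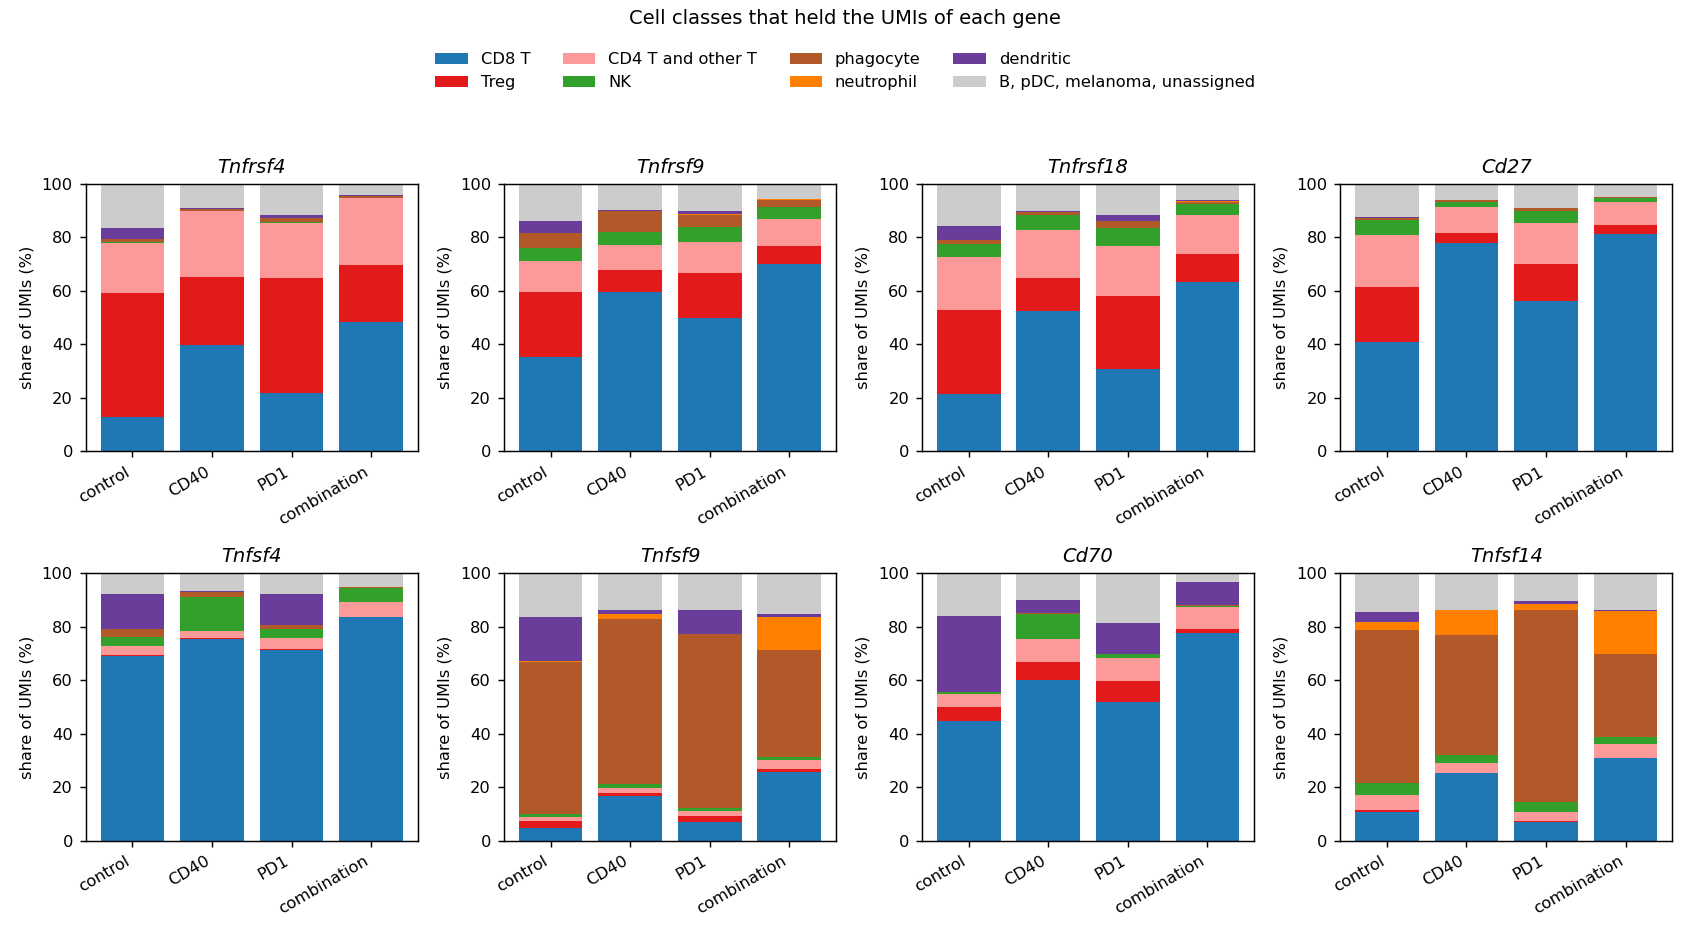
Share (%) of the UMIs of each gene in a library that fell in each gated cell class, as stacked bars per library; Tnfsf18 is left out for its few UMIs. CD8 T-like cells held 13.03, 39.7, 21.8 and 48.4% of Tnfrsf4 UMIs and Treg-like cells 46.2, 25.4, 43.0 and 21.4%, in the order control, CD40, PD1 and combination.

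The classes that supplied each transcript differed between libraries. Treg-like cells held 46.2, 25.4, 43.0 and 21.4% of Tnfrsf4 UMIs and 31.2, 12.6, 27.3 and 10.6% of Tnfrsf18 UMIs, and CD8 T-like cells held 13.03, 39.7, 21.8 and 48.4% and 21.6, 52.5, 30.8 and 63.3%. Between these classes, Treg-like cells were the larger source of Tnfrsf4 in the control and PD1 libraries. CD8 T-like cells were the larger source in both libraries with the CD40 antibody. T cells outside the CD8, conventional CD4 and Treg classes held 15.8, 21.8, 16.7 and 20.6% of Tnfrsf4 UMIs. These were 1612 UMIs against 1878 in Treg-like cells of the CD40 library, and 1971 against 2052 in the combination. The Treg-like shares therefore depend on how T cells were split. CD8 T-like cells made up 8.56, 22.9, 10.5 and 31.2% of cells and Treg-like cells 4.9, 1.19, 3.72 and 1.33%. Phagocyte-like cells supplied 56.8, 61.7, 64.9 and 40.0% of Tnfsf9 and 57.3, 44.9, 72.0 and 31.3% of Tnfsf14, and CD8 T-like cells 68.9, 75.6, 71.3 and 83.7% of Tnfsf4 and 44.8, 60.2, 51.8 and 77.5% of Cd70. With 1 pool per group, a difference in the tumours' cell make-up and a difference between sorts cannot be told apart.

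The adaptors that these receptors share, and NF-kappaB, were 2-fold apart most often in neutrophil-like and dendritic cell-like cells. The list held 12 genes: Traf1, Traf2, Traf3, Traf5, Birc2, Birc3, Map3k14, Nfkb1, Nfkb2, Relb, Nfkbia and Tnfaip3. In CD8 T-like cells none of the 12 was 2-fold apart in any of the 5 comparisons, with medians of -0.24 for CD40 against control and -0.10 for combination against PD1. In phagocyte-like cells none was for either CD40 antibody comparison, with medians of 0.34 and 0.13, where all genes had medians of -0.010 and 0.0058. In neutrophil-like cells the counts were 4 higher and 0 lower of 10 readable genes for CD40 against control, beside 7.74% of all genes higher, and 6 higher and 1 lower of 11 for combination against PD1, beside 9.29%. Scaling by TMM put the median of all genes of neutrophil-like cells at 0.12 and 0.24 for these comparisons, from -0.09 and -0.36 by totals. In dendritic cell-like cells the counts were 2 higher and 0 lower of 12, beside 4.83%, and 4 higher and 0 lower of 12, beside 5.43%.

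Traf1, an adaptor bound by 4-1BB and other receptors of the family, read 16.0 CPM in the control, 122 CPM in the CD40, 40.3 CPM in the PD1 and 437 CPM in the combination library in neutrophil-like cells. Its log2 ratios were 2.93 (1.86 to 4.26) and 3.44 (2.69 to 4.31) for CD40 against control and combination against PD1. Nfkbia, which encodes the NF-kappaB inhibitor I-kappaB alpha and is itself an NF-kappaB target, gave 1.20 (1.02 to 1.38) and 2.69 (2.51 to 2.87) there. Tnfaip3, which encodes the inhibitor A20, gave 1.38 (0.69 to 2.14) and 2.57 (2.00 to 3.22), and Nfkb2, an NF-kappaB subunit, 1.05 (0.29 to 1.90) and 2.49 (1.56 to 3.63). In dendritic cell-like cells Nfkbia gave 1.09 (0.98 to 1.20) and 1.08 (0.96 to 1.19).

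Another list held 11 genes of related pairs: Cd40, Cd40lg, Tnfrsf14, Btla, Cd160, Ltbr, Ltb, Tnfrsf25, Tnfsf15, Tnfrsf8 and Tnfsf8. Past 2-fold the same way in both CD40 antibody comparisons were 1 of 5 readable genes in dendritic cell-like cells, beside 4.35% of all genes, 2 of 9 in phagocyte-like cells, beside 2.44%, and 1 of 5 in CD4 T-like cells, beside 1.92%. By the same rule, 4 of 10 readable adaptor genes passed in neutrophil-like cells, beside 5.72% of all genes, and 1 of 12 in dendritic cell-like cells. Cd40, the receptor that the antibody binds, read 141 CPM in the control, 472 CPM in the CD40, 159 CPM in the PD1 and 319.7 CPM in the combination library in dendritic cell-like cells, with log2 ratios of 1.74 (1.60 to 1.88) and 1.01 (0.83 to 1.19). In the same class the phagocyte markers given above were higher with the CD40 antibody and cDC1-like and cDC2-like cells were nearly missing, and their part in the Cd40 level was not tested. In phagocyte-like cells Ltb, which encodes lymphotoxin beta, gave 1.64 (1.47 to 1.82) and 1.05 (0.91 to 1.19), and Tnfsf8, the CD30 ligand, -1.34 (-1.75 to -0.94) and -2.52 (-3.29 to -1.82) at levels of 2.26 CPM in the control, 0.895 CPM in the CD40, 1.59 CPM in the PD1 and 0.279 CPM in the combination library. Tnfrsf25, which encodes death receptor 3, gave 1.46 (0.76 to 2.16) and 1.07 (0.46 to 1.70) in CD4 T-like cells.

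The pattern of each gene was compared with that of 11962 genes with at least 200 UMIs, as the correlation of log2(CPM + 1) across the 31 class-by-library sums with at least 50 cells. These correlations describe how the classes differ and share cells, libraries and depth, so no p-value is given. The genes most like Tnfrsf4 were Cd5 (r = 0.93), Sla (r = 0.93) and Ccr8 (r = 0.93), those most like Tnfrsf9 Jak3 (r = 0.95), Ssbp3 (r = 0.94) and Dnaja4 (r = 0.94), those most like Tnfrsf18 Cyld (r = 0.95), Ndfip1 (r = 0.94) and Arl2bp (r = 0.94) and those most like Cd27 Tox (r = 0.98), Acsbg1 (r = 0.97) and Dnaja4 (r = 0.97). Among them Cd5 and Sla are known from T cell receptor signalling, Ccr8 as a chemokine receptor of tumour Treg cells and Tox as a factor of chronically stimulated T cells, while Ssbp3, Dnaja4, Ndfip1 and Arl2bp are not T cell markers.

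Among the ligands, Cd70 was most like Cdon (r = 0.89), Lad1 (r = 0.87) and Eid2 (r = 0.86), Tnfsf4 most like Klrd1 (r = 0.83), Nedd4 (r = 0.81) and Gipc2 (r = 0.81), Tnfsf9 most like Mapk1ip1l (r = 0.78), Gnb1 (r = 0.75) and Vps26c (r = 0.74) and Tnfsf14 most like Hgsnat (r = 0.82), Sntb2 (r = 0.82) and Slc20a1 (r = 0.82). Klrd1 encodes CD94, a receptor of NK and activated CD8 T cells. Tnfsf18, with 64 UMIs in these sums, reached no more than r = 0.62. Pairs of receptors correlated at 0.74 to 0.93. Of the receptor and ligand partners, Cd27 and Cd70 were at 0.46, Tnfrsf4 and Tnfsf4 at 0.07, Tnfrsf9 and Tnfsf9 at 0.04 and Tnfrsf18 and Tnfsf18 at -0.26.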

How the data were processed

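Single-cell RNA-seq UMI counts per gene and barcode were used as the authors deposited them, 1 library for each of 4 groups; Cell Ranger 7.0.0 and GRCm38 are named in the submitters' processing notes, and the sources used here do not state the strand and intron settings. Members and gene lists were chosen with earlier results of these data known.

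Cells needed 300 or more genes and no more than 10% mitochondrial UMIs (13 genes). Those with a Scrublet score over 0.25 (scanpy 1.11.5) were removed as doublets, 111, 149, 257 and 239 in the 4 libraries (control, CD40, PD1, combination). Cells entered a class by counts of detected markers: 3 of 5 for T, NK and B and 5 of 10 for phagocytes. Neutrophils needed 4 of 7. Dendritic cells needed 3 of 5 general, 4 mature or 3 of 4 cDC1 markers, with at most 1 of 4 macrophage markers. Cells passing several gates were left out, with exceptions. Dendritic cells could also pass the phagocyte gate, and T, B and plasmacytoid dendritic cells could also pass a dendritic gate. T cells were then split by Cd8, Cd4 and Foxp3 UMIs. No member entered a gate.

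UMIs were summed per class and library and scaled to CPM, with exact Poisson intervals for levels, exact conditional binomial intervals for ratios (scipy 1.17.1) and Clopper-Pearson intervals for shares. A count of 0 was set to 3 in a ratio, which is then a bound. CD40 against control and combination against PD1 share no library; other pairs of comparisons that name the same library share it. Named genes outside the members were those of 2 fixed lists past 2-fold in the same direction in both comparisons of an antibody within a class. Alternatives were TMM (edgeR 4.0.16) and DESeq2 1.42.0 size factors, equal weight per cell, classes from Leiden clusters made without the members and a stricter gate. Others were thinning, doublets kept, no cell filter, dividing cells left out and a Treg gate that allows Cd8 UMIs. For counts, the UMI minimum was also lowered from 30 to 3. After the data were seen, leaving out a gene's UMIs in the cell with the most of them and an NK gate that allows Cd3 UMIs were added. In the former the class total was kept. The ratios and their intervals were tested on simulated Poisson counts. The simulation held no gathering of UMIs in single cells, so it cannot show how the intervals fare with it.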

Additional observations from a re-analysis of the deposited data

Results flagged for a closer look

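In 8 cases a log2 ratio for one antibody had opposite signs without and with the other antibody, and both intervals left out 0. The intervals cover counting error alone, and with 1 library per group none of these differences was tested. The comparisons without and with the other antibody share no library. The rule was run on the 9 genes alone, so no share of all genes stands beside this count. Large counts give narrow intervals, so small ratios can pass. Both Tnfrsf4 cases in Treg-like cells rest on the same libraries.

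In Treg-like cells Tnfrsf4 (OX40) gave 0.36 (0.28 to 0.43) alone and -0.39 (-0.46 to -0.31) with the PD1 antibody for the CD40 antibody, and 0.27 (0.22 to 0.32) alone and -0.48 (-0.57 to -0.39) with the CD40 antibody for the PD1 antibody. Its level was above the control in both single-antibody libraries and below it in the combination, where the phagocyte marker Lyz2 also read 415 CPM in these cells against 50.5 to 59.4 CPM in the other libraries. The part of that difference in the Tnfrsf4 level was not tested. Tnfrsf18 (GITR) in the same cells gave 0.23 (0.16 to 0.29) alone and -0.16 (-0.27 to -0.04) with the CD40 antibody for the PD1 antibody. In CD4 T-like cells the CD40 antibody gave 0.25 (0.0026 to 0.49) alone and -0.36 (-0.54 to -0.17) with the PD1 antibody for Tnfrsf4, and 0.54 (0.21 to 0.86) alone and -0.37 (-0.60 to -0.15) for Tnfrsf9.

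In CD8 T-like cells the PD1 antibody gave -1.08 (-1.30 to -0.86) alone and 0.34 (0.17 to 0.51) with the CD40 antibody for Tnfsf4 (OX40L), the widest of the 8, and -0.16 (-0.24 to -0.09) alone and 0.14 (0.09 to 0.19) for Tnfrsf18. In mononuclear phagocyte-like cells it gave 0.24 (0.12 to 0.37) alone and -0.12 (-0.24 to -0.01) for Tnfrsf9 (4-1BB), whose UMIs there came from 229, 258, 361 and 232 cells of the 4 libraries. Without the Tnfrsf9 UMIs of the cell that held the most of them in each library, these ratios were 0.28 and -0.16.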

How the results depend on the processing

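Over all readable ratios, called or not, 1509 of 1756 values under the alternatives stayed within the main interval. Another 238 moved outside it, and 9 reversed a called ratio. The moved values were 66 of 194 with thinning and 56 of 171 with clusters. They were 23 of 40 in CD8 T-like cells without dividing cells and 13 of 27 in Treg-like cells with Cd8 UMIs allowed. Of 356 values of the 41 called ratios, 347 kept their sign and 295 stayed past 2-fold, and 12 ratios did so in every alternative run. Signs turned in dendritic cell-like and neutrophil-like cells. With classes from clusters Tnfrsf9 in neutrophil-like cells became -0.42 for combination against CD40 and -0.39 against control, Tnfrsf9 in dendritic cell-like cells 0.28 for CD40 against control, and Tnfsf4 there 0.65 for combination against PD1 and 0.63 against control. In thinned cells Tnfsf4 there became 0.92 for CD40 against control, 1.18 for combination against PD1 and 1.20 for combination against control. A stricter gate gave 0.20 for Tnfrsf4 there, combination against control. Counts moved in 14 of 215 values. For CD8 T-like receptors, combination against PD1 went from 0 to 1 with equal weight. For NK-like receptors, CD40 against control went from 1 to 2 with clusters and with a minimum of 3 UMIs. Combination against control went from 1 to 2 with the same settings. Combination against PD1 went from 2 to 1 with TMM, DESeq2, clusters and thinning and to 0 with equal weight and the stricter gate. With a minimum of 3 UMIs phagocyte-like ligands went from 0 to 1 for CD40 against control and to 2 for PD1 and for combination against control. The causes were not tested. Clusters gave no CD4 T class, and TMM and DESeq2 factors gave no value for 31 results each. Tnfsf18 had under 30 UMIs in every class and library. No paired analysis was possible because each group is 1 library.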

Other observations

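B-like cells were too few in the libraries with the CD40 antibody for ratios there. Plasmacytoid dendritic cell-like cells numbered under 50 in every library but PD1, so no ratio was read for them. B-like cells numbered 226, 49, 134 and 36 in the 4 libraries and held 39, 17, 36 and 9 UMIs of Tnfrsf18, or 35.7, 34.5, 51.8 and 16.6 CPM. Cd70 in B-like cells came to 15, 0, 1 and 0 UMIs, and the 15 of the control came from 1 cell. Plasmacytoid dendritic cell-like cells held 0, 0, 18 and 0 UMIs of Tnfrsf9 and 13, 4, 17 and 2 UMIs of Tnfrsf18, in 42, 19, 63 and 7 cells.

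The dendritic subsets differed in Tnfsf9. In the control and PD1 libraries, the only ones with at least 50 cells of each, cDC1-like cells, known for cross-presenting antigen to CD8 T cells, held 5.74 and 15.7 CPM. The cDC2-like cells held 31.8 and 51.8 CPM, mature cells 68.6 and 93.7 CPM and cells of no subset 66.3 and 49.2 CPM. Tnfrsf9 in cDC2-like cells read 25.1 (19.95 to 31.1) CPM in the control and 4.07 (1.64 to 8.39) CPM in the PD1 library, from 82 and 7 UMIs.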
